A study of Arabidopsis thaliana with 6 samples.

Results

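The chromosome ends described here are the outermost 500 kb at the left (low-coordinate) and right tips of the 5 nuclear chromosomes of Arabidopsis thaliana, 10 ends and 5 Mb in all. Their members are all domains of a list of H3K27me1 domains and a list of 5mC domains whose midpoint lies in an end on the TAIR10 build. This rule uses position alone and takes 671 of the 25306 domains of both lists, 415 of 13068 for H3K27me1 and 256 of 12238 for 5mC. Next to the limit, the innermost H3K27me1 member has its midpoint 499.5 kb from the tip and the first domain outside 501.2 kb, and for 5mC these distances are 498.0 and 502.4 kb. The plants were of the strain Col0 (Columbia-0), grown in soil with 8 h of light and 16 h of dark at 22.5 °C, and young leaves were taken. Histone H3 monomethylated at lysine 27 (H3K27me1) was profiled by chromatin immunoprecipitation in 2 samples. Methylated cytosine (5mC) was profiled by immunoprecipitation of methylated DNA in 2 samples, with 2 input samples without antibody. All samples share the strain, the tissue and the growth conditions, and the comparison is between the marks and between positions.

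Chromosome ends carry the telomeres, arrays of a short repeat that protect the tips, and next to them the subtelomeric sequence. In this species the tips of the left arms of chromosomes 2 and 4 carry the nucleolus organizers, long arrays of ribosomal RNA (rRNA) genes. Many copies in such arrays are silent and packed as heterochromatin. H3K27me1 is set by the histone methyltransferases ATXR5 and ATXR6 and marks silent, repeat-rich chromatin, where it restrains extra replication. Cytosine methylation silences transposons, and in CG context it is also found in the bodies of many expressed genes.

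Each list gives 1 read count per domain and none per replicate, so no replicate error exists and no test over samples was possible. The 10 ends are positions in 1 genome and not replicates. All differences given below are therefore descriptions of these lists. The domains of the ends held 292099 reads for H3K27me1 and 689221 reads for 5mC, 2.30% and 2.46% of the reads of each list. Reads outside called domains are not in the lists, so library depth is unknown here.

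Together the ends were covered by H3K27me1 domains over 387.6 kb (7.75%) and by 5mC domains over 199.1 kb (3.98%), with 119.7 kb in both. In whole leaves, a mark in fewer cells and less of a mark per cell cannot be told apart. One end held a large part of this. Chromosome 2's left end contributed 23.5% of the H3K27me1 bases and 44.1% of the 5mC bases of all ends. Without it the coverage of the other 9 ends was 6.59% for H3K27me1 and 2.47% for 5mC.

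H3K27me1 coverage was 18.2% at the left end of chromosome 2. It was 9.48% at the right end of chromosome 3, 9.0% at the left end of chromosome 5, 8.04% at the left end of chromosome 3 and 7.62% at the left end of chromosome 4. It was 6.84% at the right end of chromosome 2, 5.40% at the right end of chromosome 1 and 4.86% at the right end of chromosome 4. The lowest values were 4.08% at the right end of chromosome 5 and 3.96% at the left end of chromosome 1. Apart from the left end of chromosome 2, the values thus formed a gradual series without a gap.

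5mC coverage was 17.6% at the left end of chromosome 2 and 4.29% at the left end of chromosome 4. It was 3.78% at the left end of chromosome 5, 3.66% at the right end of chromosome 3, 2.79% at the left end of chromosome 3 and 2.73% at the left end of chromosome 1. The right ends of chromosomes 1, 2, 4 and 5 had the lowest 5mC coverage, with 1.59%, 1.41%, 1.38% and 0.63%. The 5 right ends ranged from 0.63 to 3.66% (median 1.41%) and the 5 left ends from 2.73 to 17.6% (median 3.78%), so that the sides overlapped only through the right end of chromosome 3. For H3K27me1 the sides overlapped more widely, from 4.08 to 9.48% on the right and from 3.96 to 18.2% on the left.

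Each end was set beside the rest of its own arm, which is the arm without the end and without the gene-poor pericentromere. 5mC coverage was lower in the end than in the rest of the arm at 9 of 10 ends. The difference was smallest at the left end of chromosome 5 (3.78% against 4.08%) and largest at the right end of chromosome 5 (0.63% against 4.47%). The left end of chromosome 2 was the exception, with 17.6% against 10.4%, although only 0.8 Mb of its arm remained for the comparison. The rest of an arm also includes sequence near the pericentromere. Against the adjacent 500 kb alone, 5mC coverage was lower at 6 ends and higher at 4. Those 4 were the left ends of chromosomes 1 (2.73% against 1.92%), 2 (17.6% against 10.2%), 3 (2.79% against 2.31%) and 5 (3.78% against 1.77%). The means over all ends were 3.98% and 3.50%, the reverse of the order against the rest of the arms, and without the left end of chromosome 2 they were 2.47% and 2.76%. Against the rest of its arm, H3K27me1 coverage was lower at 5 ends and higher at 5, and against the adjacent 500 kb it was lower at 3 and higher at 7. Without the left end of chromosome 2, the H3K27me1 means of ends and adjacent 500 kb were 6.59% and 5.96%, with 6 of 9 ends higher. On chromosome 1 the left end had 3.96% against 7.41%, whereas the right end of chromosome 3 had 9.48% against 6.91%.

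**Figure D1:**
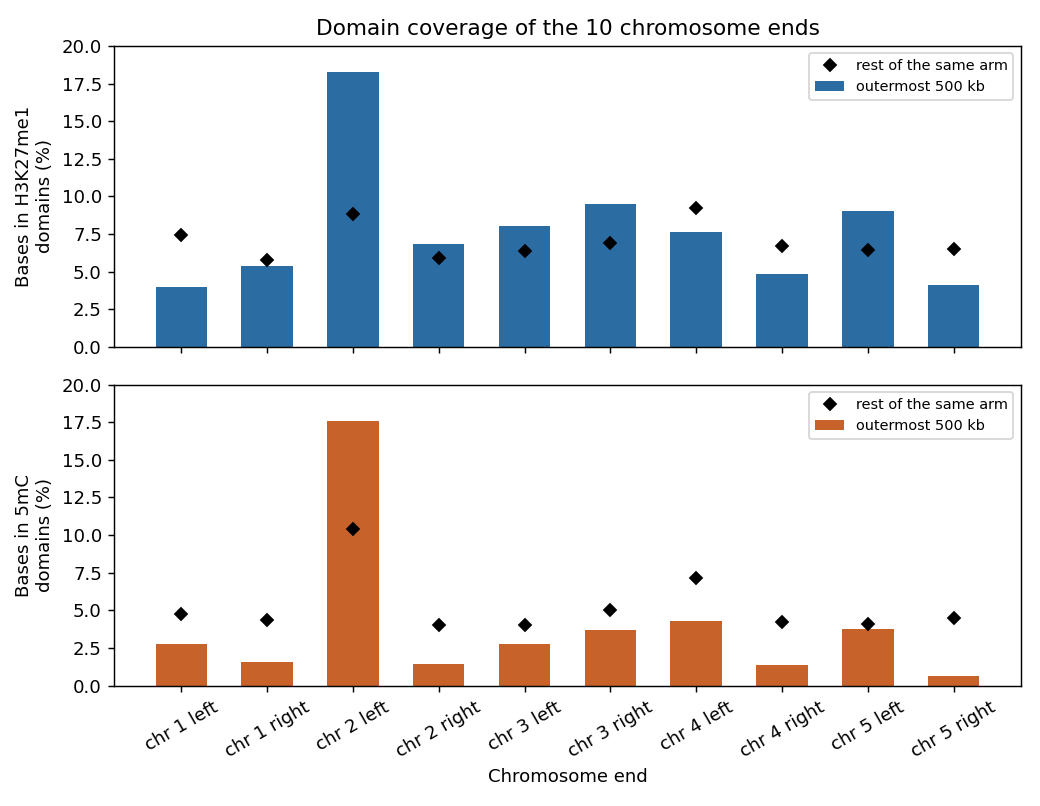
Share of bases in H3K27me1 domains (upper panel) and 5mC domains (lower panel) at the 10 chromosome ends (bars, outermost 500 kb) and in the rest of the same arm without the pericentromere (diamonds); each bar and diamond is 1 value from 1 list, without error. Values at the left end of chromosome 2 reach 18.2% and 17.6%, and the 5mC bars of the other 9 ends lie below their diamonds.

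Over all arms, the sequence outside ends and pericentromeres was covered to 6.53% by H3K27me1 and 4.43% by 5mC. In 170 windows of 500 kb that tile this sequence inward from the ends, H3K27me1 coverage ranged from 2.64 to 15.6% (median 6.0%) and 5mC coverage from 0.96 to 14.2% (median 3.41%). The 5mC coverage of 6 of 10 ends and the H3K27me1 coverage of 4 lay below the median window. No window reached the values of the left end of chromosome 2. The right end of chromosome 5, with 0.63% of its bases in 5mC domains, lay below the lowest window. The other 8 ends lay within the range of the windows for both marks. Annotated pseudogenes, the class of the gene table that also holds transposon loci, made up 9.58% of the left end of chromosome 2, from 0 to 2.98% of the other ends, and 2.36% of the rest of the arms.

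The left end of chromosome 2 carried both marks over most of its first 70 kb. In its outermost 50 kb both marks covered 97.0% of the bases, against a mean of 5.73% for H3K27me1 and 5.04% for 5mC in the outermost 50 kb of the other 9 ends. The widest H3K27me1 domain of all ends ran here from 901 to 38700 (37.8 kb), with 114018 reads or 3016 reads per kb. Only 3 H3K27me1 domains of the genome held more reads. The widest 5mC domain of all ends ran from 1051 to 41700 (40.65 kb), with 461499 reads or 11353 reads per kb, and ranked 2 among all 5mC domains by reads. These densities were 6.75 times the median domain of the H3K27me1 list and 10.6 times that of the 5mC list. The H3K27me1 domain lay to 99.6% in 5mC domains and the 5mC domain to 99.3% in H3K27me1 domains.

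This pair of domains accounted for 39.0% of the H3K27me1 reads and 67.0% of the 5mC reads of all ends. Both began about 1 kb from the tip and held the 2 rRNA genes of the end, AT2G01010 (1808 bp) and AT2G01020 (164 bp), each covered to 100% by both marks. Further inward they held the pseudogenes AT2G01022, AT2G01024, AT2G01026, AT2G01028 and AT2G01029. Of the 8 pseudogenes of at least 2000 bp in this end, all 8 had at least 50% of their length in both marks. AT2G01029 (10188 bp), AT2G01037 (6168 bp), AT2G01550 (5132 bp), AT2G01034 (4924 bp) and AT2G01026 (4917 bp) were each covered to 100% by both, and AT2G01840 (5323 bp) to 98.6% by H3K27me1 and 100% by 5mC.

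**Figure D2:**
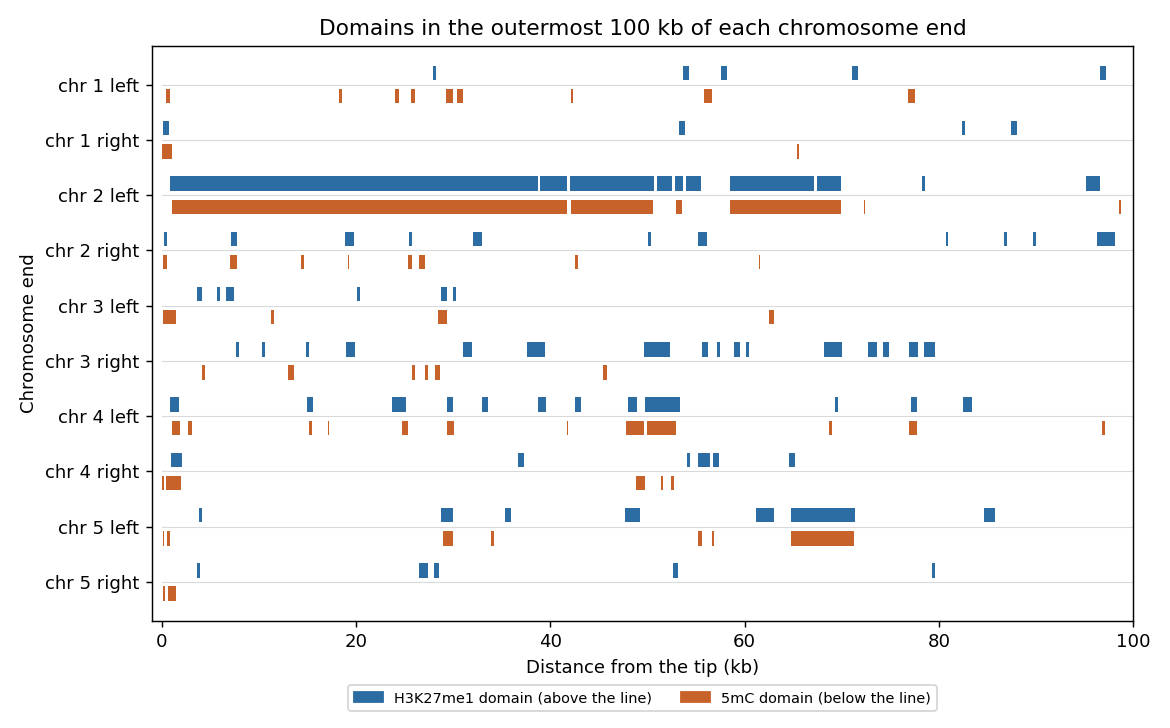
Domains in the outermost 100 kb of the 10 chromosome ends, drawn to scale by distance from the tip in kb; H3K27me1 domains stand above each line and 5mC domains below it. Only the left end of chromosome 2 is mostly filled to about 70 kb, and elsewhere the domains are short and scattered, apart from pairs of domains near 50 kb at the left end of chromosome 4 and near 65 kb at the left end of chromosome 5.

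Behind the long domains followed 2 further blocks with both marks. The first ran for H3K27me1 from 42001 to 50700 (8.7 kb, 1088 reads per kb) and for 5mC from 42151 to 50550 (8.4 kb, 1938 reads per kb), over the pseudogene AT2G01034. The second ran for 5mC from 58501 to 69900 (11.4 kb, 1971 reads per kb), over AT2G01037, AT2G01040 and the protein-coding AT2G01050. H3K27me1 covered the same stretch with domains from 58501 to 67200 and from 67501 to 69900. The blocks ended sharply. From 100 kb inward, the end was covered to 6.30% by H3K27me1 and 6.60% by 5mC, against means of 6.53% and 2.06% at the other 9 ends. In that inner part the largest members were 2 isolated pairs of domains over the pseudogenes AT2G01550 and AT2G01840, each 5.4 kb wide for H3K27me1.

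The nuclear rRNA genes in the gene table are at 2 places, which allows a comparison of the tip with an internal copy. The other pair, AT3G41768 (1808 bp) and AT3G41979 (164 bp), lies in the pericentromere of chromosome 3 and has the same lengths. The H3K27me1 domain over it ran from 14171401 to 14209200, was also 37.8 kb wide and held 176741 reads or 4676 reads per kb, against 3016 at the tip of chromosome 2. The 5mC domain over it ran from 14189701 to 14209050 (19.35 kb) and held 610730 reads or 31562 reads per kb, against 11353 at the tip. rRNA genes are near-identical and are present in the genome in far more copies than the gene table lists. How reads that match several places were assigned is not given in the sources used here, so the counts at either place may come from copies elsewhere, and per-copy enrichment cannot be read from them.

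The left end of chromosome 4 is the other one known to carry rRNA genes, but the gene table places none of them in its 500 kb, so that only the sequence next to the array is described. H3K27me1 covered 7.62% and 5mC 4.29% of this end, values within those of the windows on the arms. The outermost domains ran from 901 to 1800 for H3K27me1 (976 reads per kb) and from 1051 to 1950 for 5mC (1970 reads per kb), and both covered 100% of AT4G00005, the protein-coding gene nearest to the tip. The largest members lay about 50 kb inward, from 49801 to 53400 for H3K27me1 (3.6 kb, 1042 reads per kb) and from 49951 to 52950 for 5mC (3.0 kb, 1390 reads per kb). They covered EDA34, named for a defect of embryo sac development in its mutant, over 97.9% and 78.2% of its length. Its neighbour AT4G00130 had 82.4% and 100%. This end held 46 domains of each list.

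Domains lay close to most tips. A 5mC domain began within 5 kb of the tip at 10 of 10 ends, and an H3K27me1 domain at 8 of 10. For comparison, of 17447 windows of 5 kb in the rest of the arms, 28.6% held some 5mC domain sequence and 33.4% some H3K27me1 domain sequence. The distance of 5 kb was chosen after the values had been seen. At 9 of 10 ends a 5mC domain lay within 1.05 kb of the tip, and the right end of chromosome 3 had its first at 4.18 kb. The first H3K27me1 domain lay between 0.171 and 7.63 kb from the tip at 9 ends and at 27.9 kb at the left end of chromosome 1. These distances depend on how far the assembly reaches into each telomere. At the left ends that carry the nucleolus organizers, they also depend on how much of the rRNA gene array the assembly holds. The tip is there the first base of the assembly, which need not be the end of the chromosome. The counts of ends above include these ends.

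At the other 9 ends, 5mC covered 18.0% of the outermost 5 kb on average (6.0 to 33.0%), 1.67% of the next 5 kb, 3.85% from 10 to 50 kb, 3.19% from 50 to 100 kb and 2.06% from 100 to 500 kb. In the outermost 5 kb no end was free of it, and from 5 to 10 kb 8 of 9 were. H3K27me1 covered 9.33% of the outermost 5 kb (0 to 24.0%), 4.67% of the next 5 kb, 5.41% from 10 to 50 kb, 7.94% from 50 to 100 kb and 6.53% further inward. Of the 14 5mC domains within 5 kb of a tip, 7 overlapped no annotated gene and 9 did not touch an H3K27me1 domain, which held for 189 of all 256 5mC domains of the ends. Of the 8 H3K27me1 domains, 5 touched a 5mC domain.

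The tips differed in reads per kb. How multiply matching reads and inputs were used is not given, so these densities need not measure the strength of a mark. At the right end of chromosome 2 a 5mC domain of 450 bp from 19697701 to 19698150 held 6258 reads or 13907 reads per kb, which ranked 4 among all 12238 domains of the list. The H3K27me1 domain within it, from 19697701 to 19698000, had 863 reads per kb. On the left of chromosome 3 a 5mC domain from 151 to 1500 had 2316 reads per kb and no H3K27me1. The first 5mC domain with the fewest reads per kb, at the left end of chromosome 1, ran from 451 to 900 with 507 reads per kb. At the right end of chromosome 4, 5mC from 18583051 to 18584550 (1106 reads per kb) and H3K27me1 from 18582901 to 18584100 (471 reads per kb) met over PRSL1, the last protein-coding gene, covered to 100% and 66.9%. The right end of chromosome 5 had 2 5mC domains within 1 kb of the tip, with 1090 and 1171 reads per kb, and H3K27me1 only from 3.70 kb.

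**Figure D3:**
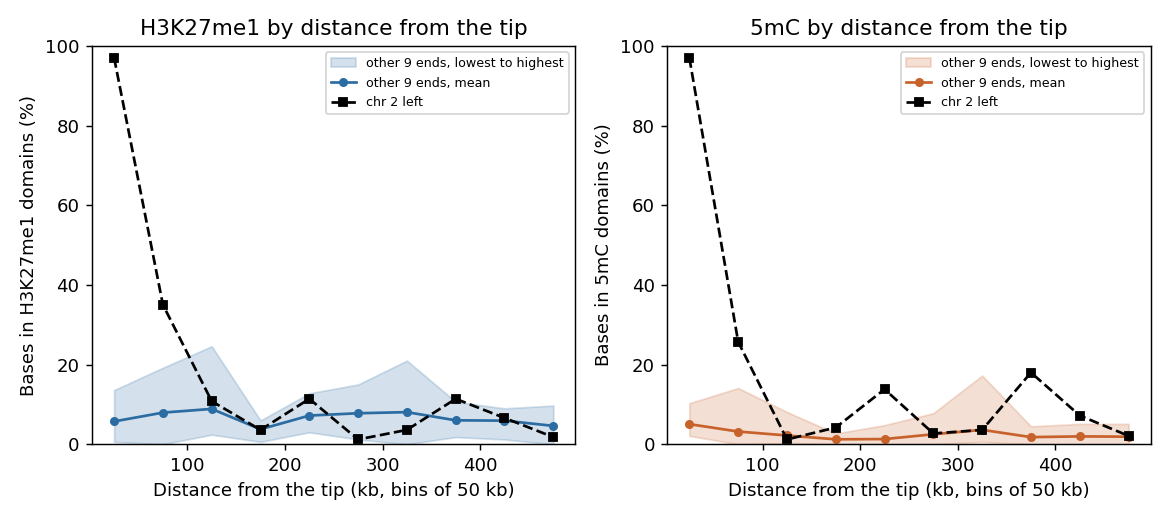
Share of bases in H3K27me1 domains (left panel) and 5mC domains (right panel) in bins of 50 kb by distance from the tip, for the left end of chromosome 2 (dashed) and as the mean and the lowest-to-highest range of the other 9 ends. At the left end of chromosome 2 both marks start at 97.0%; beyond 100 kb its highest bins are 11.4% for H3K27me1, from 200 to 250 kb and from 350 to 400 kb, and 18.0% for 5mC, from 350 to 400 kb, while the means of the other ends stay between 3.75 and 8.87% for H3K27me1 and between 1.23 and 5.04% for 5mC.

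Inside the other 9 ends, single bins with high coverage differed in the marks and annotation they held, and the cause was not tested. The left end of chromosome 5 had 19.2% H3K27me1 and 14.1% 5mC from 50 to 100 kb, and 24.6% and 8.10% from 100 to 150 kb. Pseudogenes made up 9.30% and 10.9% of these bins. From 100 to 150 kb, most H3K27me1 bases thus lay outside 5mC domains, and most lay outside pseudogenes. At this end, the H3K27me1 domain from 64801 to 71400 (6.6 kb, 1237 reads per kb) held the pseudogene AT5G01185. So did the 5mC domain from 64801 to 71250 (1391 reads per kb). The right end of chromosome 3 had 15.1% H3K27me1 and 17.2% 5mC from 300 to 350 kb, around the domains over AT3G62475, AT3G62480 and AT3G62490. The H3K27me1 domain spanned 23109001 to 23115300 and the 5mC domain 23108851 to 23115750.

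Other bins had much H3K27me1 and little or no 5mC. From 50 to 100 kb, H3K27me1 covered 19.1% and 5mC 0% of the right end of chromosome 3, with no pseudogene and 80.1% protein-coding sequence. The genes under these domains included FKD1, a leaf vein patterning gene, with 52.5% of its length in H3K27me1, the heat shock transcription factor gene AT-HSFA7B with 51.5%, and AT3G63380, a calcium pump gene annotated as ACA12. Likewise, the left end of chromosome 3 had 21.0% H3K27me1 and 0.9% 5mC from 300 to 350 kb, where AK3, an aspartate kinase of amino acid synthesis, lies. Within single ends the marks formed both shared blocks over pseudogenes and stretches of H3K27me1 alone over genes.

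The share of H3K27me1 bases that lay in 5mC domains was 30.9% over all ends, and 15.3% without the left end of chromosome 2. It was 81.4% at that end, and at the other ends it ranged from 0.735% (right end of chromosome 5) to 28.3% (left end of chromosome 5), with 37.7% in the rest of the arms. In the other direction, 60.1% of the 5mC bases of all ends lay in H3K27me1 domains. This was 84.6% at the left end of chromosome 2, 40.8% at the other 9 ends together and 55.6% in the rest of the arms. At the right end of chromosome 5, 0.15 kb carried both marks.

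Counted by domain, 346 of 415 H3K27me1 domains (83.4%) touched no 5mC domain, against 44.1% of the whole list and 70.9% in the rest of the arms. Of the 256 5mC domains, 189 (73.8%) touched no H3K27me1 domain, against 45.1% and 66.3%. H3K27me1 domains without 5mC had their midpoint in a protein-coding gene in 96.2% of cases, those with 5mC in 56.5%. For 5mC the values were 62.4% without H3K27me1 and 56.7% with it. The 5mC domains that touched H3K27me1 had a median width of 600 bp, the others 300 bp. The counts of touching domains are not corrected for width.

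Most members were short. H3K27me1 members had a median width of 600 bp, with quartiles of 300 and 900 bp. The 5mC members had a median of 300 bp, with quartiles of 300 and 600 bp, and both medians equalled those of the rest of the arms. A width of 1000 bp or more was found for 20.7% of the H3K27me1 members and 8.59% of the 5mC members, against 19.8% and 14.4% in the rest of the arms. The median read density was 407 reads per kb for H3K27me1 and 1041 for 5mC, against 413 and 1040 in the rest of the arms. The density of the middle domain thus hardly differed between the ends and the rest of the arms, and the high values belonged to few domains.

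**Figure D4:**
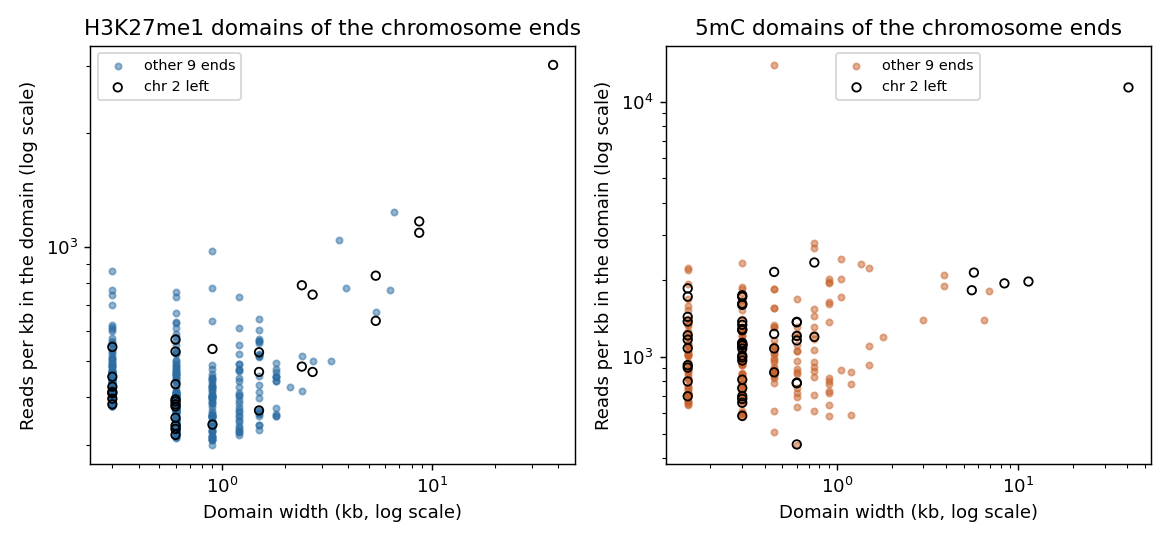
Width in kb and reads per kb of the 415 H3K27me1 domains (left panel) and 256 5mC domains (right panel) of the chromosome ends, both axes logarithmic; open circles mark the left end of chromosome 2. The points at 37.8 kb with 3016 reads per kb and at 40.65 kb with 11353 reads per kb are the domains at the tip of chromosome 2, and the point at 450 bp with 13907 reads per kb is the domain at its right tip; reads per kb can be compared within a panel only.

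Where the bases with H3K27me1 alone lay in the annotation was similar at the other 9 ends and on the rest of the arms, while bases with 5mC differed more. Bases with H3K27me1 alone fell to 95.2% in protein-coding genes at the other 9 ends and to 92.7% in the rest of the arms, while protein-coding genes made up 71.5% and 64.4% of these regions. Bases with 5mC alone fell to 65.6% and 57.8% in protein-coding genes, and to 32.0% and 34.8% outside annotated genes. Pseudogenes held 0.483% and 5.62% of them. Bases with both marks fell to 39.8% and 50.4% in pseudogenes, and to 34.6% and 27.8% in protein-coding genes. At the left end of chromosome 2, 63.0% of the bases with both marks were pseudogene and 8.00% protein-coding.

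**Figure D5:**
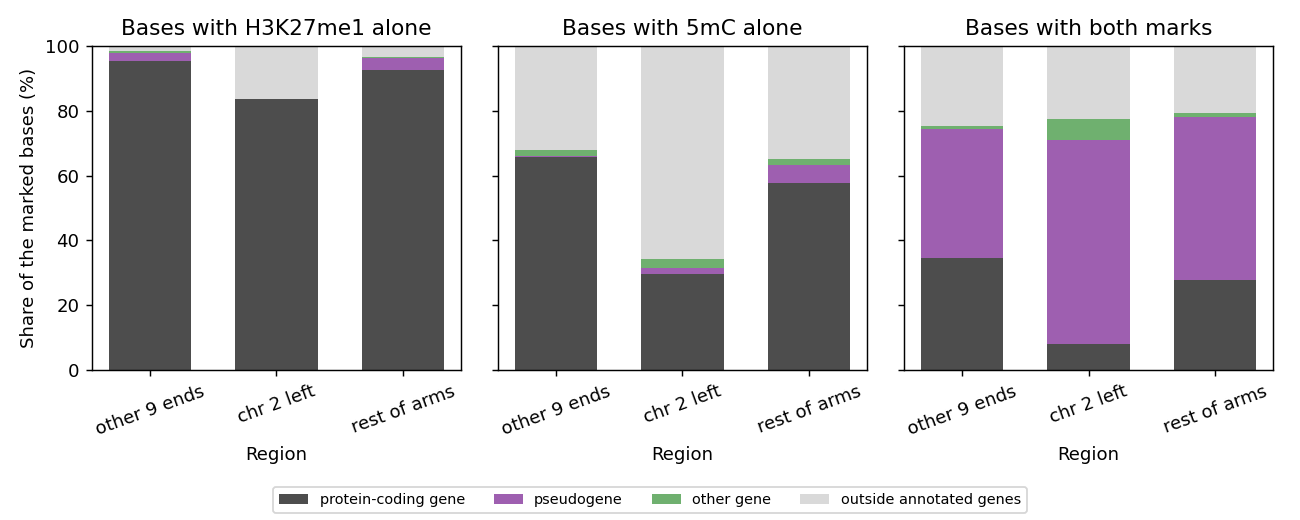
Annotation of the bases with H3K27me1 alone, with 5mC alone and with both marks at the other 9 ends, at the left end of chromosome 2 and in the rest of the arms; each column is divided into shares of the marked bases in percent. Protein-coding genes hold 95.2%, 83.7% and 92.7% of the bases with H3K27me1 alone, and pseudogenes hold 39.8%, 63.0% and 50.4% of the bases with both.

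Within protein-coding sequence, H3K27me1 covered 7.92% at the other 9 ends and 6.92% in the rest of the arms, and 5mC 1.83% and 2.83%. The 5mC value was lowest at the right end of chromosome 5 (0.641%) and highest at the left ends of chromosomes 2 (3.80%) and 4 (3.75%). Within pseudogenes, H3K27me1 covered 58.3% at the other 9 ends and 58.7% in the rest of the arms, and 5mC 43.8% and 57.2%. Outside annotated genes the values were 1.32% and 2.04% for H3K27me1 and 2.73% and 3.74% for 5mC. The lower 5mC coverage of these ends thus went along with less pseudogene sequence. It also went along with lower 5mC within protein-coding genes, within pseudogenes and outside annotated genes. The part of each was not tested.

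The ends held 40 pseudogenes. H3K27me1 covered at least 50% of the length of 21 of them (52.5%), against 72.4% of all 4843 nuclear pseudogenes and 43.3% in the rest of the arms. The counts were 20 for 5mC (50%), against 72.1% and 41.9%, and 20 for both marks, against 68%. Of the 40, 14 were at the left end of chromosome 2, with 12 covered by both marks. At the other 9 ends 8 of 26 were covered by both. In the rest of the arms 452 of 1212 were, or 37.3%. Among the 9 longer pseudogenes (at least 2000 bp) of the other ends, AT5G01185, AT5G01335, AT3G62490 and AT3G62725 were covered by both marks and AT3G62455 by H3K27me1 alone, over 89.7% of its 4013 bp. AT2G46730, AT3G62520 and AT5G01715 had no base in either list, and AT1G80020 had 17.5% in H3K27me1 domains.

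The ends held 1486 protein-coding genes, from 116 at the left end of chromosome 2 to 170 at the left end of chromosome 3. At least 50% of the gene lay in H3K27me1 domains in 102 of them (6.86%, exact 95% interval 5.63 to 8.27%), against 7.62% of all protein-coding genes and 6.09% of those in the rest of the arms. For 5mC the count was 13 (0.875%, interval 0.467 to 1.49%), against 3.69% of all and 1.91% in the rest of the arms. Both marks reached this level on 12 genes (0.808%, interval 0.418 to 1.41%), against 2.79% of all and 1.33% in the rest of the arms. The intervals are Clopper-Pearson intervals that treat genes as independent and cover counting error only. The H3K27me1 share was thus near the share over the genome. The 5mC share was lower than that over the genome and in the rest of the arms.

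By end, the genes covered by H3K27me1 numbered from 6 (left end of chromosome 1) to 14 (left ends of chromosomes 4 and 5), with a median of 10.5. Genes covered by 5mC numbered 4 at the left ends of chromosomes 2 and 4, 2 at the left end of chromosome 3, 1 at the right ends of chromosomes 1, 2 and 4, and 0 at the other 4 ends. Domains of any size touched 349 genes for H3K27me1 (23.5%), against 22.3% of all and 20.9% in the rest of the arms. For 5mC they touched 150 (10.1%), against 15.6% of all and 13.3% in the rest of the arms. At least 80% of the gene lay in H3K27me1 domains in 24 genes (1.62%), against 2.86% of all and 1.64% in the rest of the arms. No base in either list was found for 1049 genes (70.6%), close to the 69% of all and 70.8% in the rest of the arms.

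The 12 genes covered by both marks were few and mostly short. Those of the left end of chromosome 2 were AT2G01008, AT2G01021 and AT2G01023 in the rRNA gene region and AT2G01050, all covered to at least 98.8%. Those of the left end of chromosome 4 were AT4G00005, AT4G00130, EDA34 and AT4G00953. The others were AT3G01345, AT3G01415, PRSL1 and OFP14, a gene of the ovate family of transcriptional regulators. AT3G01345 had 74.4% of its 1612 bp in H3K27me1 and 93.1% in 5mC domains. AT2G46765 (393 bp) was the 1 gene covered by 5mC and not by H3K27me1, over 100% of its length, a state found in 0.896% of all protein-coding genes.

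The 10 genes with the most bases in H3K27me1 and none in 5mC had 2400 to 4200 bp in H3K27me1 domains, an order by bases that favours long genes. ABCC4 and ABCC14, transporters of the ABC family, had 4200 bp (70.6% of the gene) and 3000 bp (53.1%). AK3 had 3600 bp (58.1%) in 2 domains. The one from 338101 to 340500 also lies over AT3G02010, and its signal cannot be told apart between these genes, whereas the one from 341401 to 342600 (1200 bp) lies over AK3 alone. SEOa, a gene of the sieve element occlusion family whose proteins form filaments in the phloem, had 2972 bp (90.6%), and its neighbour SEOR1 of the same family had 65.8%. AT3G63380 had 2700 bp (69.6%), AT5G01890, a receptor-like kinase gene annotated as PXC2, 2700 bp (66.1%), and HA9, a proton pump of the plasma membrane, 2400 bp (56.7%). AT4G00700, AT4G38780 and AT2G01210 had 3300, 3300 and 2400 bp. In all, 287 genes (19.3%) were touched by H3K27me1 alone, against 15.4% of all protein-coding genes.

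With 5mC alone, 88 genes (5.92%) were touched, against 8.64% of all. The covered stretches were shorter, but widths come in steps of 150 bp for 5mC and 300 bp for H3K27me1. Their lengths are therefore not comparable between the marks. RPK2, a receptor-like kinase of meristem and anther development, had 1500 bp (35.4%) and was followed by the gene AT3G63460 of the vesicle coat protein SEC31B with 1050 bp (15.6%). TPLATE, a subunit of an endocytic adaptor complex, had 900 bp (18.8%), as did BRI1, the brassinosteroid receptor (20.6%), and EDA10 (12.3%). The gene of the splicing factor PRP8A, listed as SUS2, had 750 bp (7.53%) of its 9965 bp. AT2G01820, AT3G02280 and AT4G39960 had 900 bp each, and AT1G02420 had 750 bp. Among genes with some sequence in both marks, BRL2, a vascular receptor kinase related to BRI1, was covered to 73.0% by H3K27me1 and to 30.5% by 5mC. The chaperone gene HSP91 had 36.2% and 21.7%.

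A list of 27 well-known genes of the ends, with roles in the clock, hormones, chromatin and metabolism, had either mark about as often as all protein-coding genes. Of these, 18 (66.7%) had no base in either list, against 69% of all protein-coding genes. They included LHY (a clock transcription factor), CENH3 (the centromeric histone H3, listed as HTR12), DDM1 (the chromatin remodeller needed for DNA methylation, listed as CHR1), RGA (a DELLA repressor of gibberellin signalling), TIR1 (an auxin receptor), FRI (a flowering time regulator) and ABA1 (an enzyme of abscisic acid synthesis). H3K27me1 touched 6 (22.2%, against 22.3% of all) and 5mC touched 5 (18.5%, against 15.6%). Among all protein-coding genes of the ends, H3K27me1 touched 23.5% and 5mC 10.1%, so for 5mC the list lay above the ends. The median of the list was 0% for both marks, as over all protein-coding genes. None reached 50% of its length in either mark.

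The highest H3K27me1 shares in the list were 47.6% for CKI1 (a histidine kinase of the cytokinin pathway), 40.1% for GID1B (a gibberellin receptor) and 29.2% for KCS1 (an enzyme of wax synthesis), all without 5mC. ICU2, the catalytic subunit of DNA polymerase alpha, had 6.33%. DCL1, which makes microRNAs and lies close to the left tip of chromosome 1, had 27.8% in 5mC and 3.70% in H3K27me1 domains. The cytokinin receptor gene AHK4, listed as WOL, had 15.6% and 4.46%, and BRCA2A, a recombination gene next to the left tip of chromosome 4, had 3.36% in 5mC alone.

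The protein-coding genes nearest to the tips did not share 1 state. At the left ends that carry the nucleolus organizers, nearest means nearest to the first base of the assembly, which need not be the end of the chromosome. The first gene was covered by both marks at the left ends of chromosomes 2 (AT2G01008) and 4 (AT4G00005) and at the right end of chromosome 4 (PRSL1). At the left end of chromosome 1 (NAC001, a gene of the NAC transcription factor family) and the right ends of chromosomes 1, 3 and 5 (AT1G80990, AT3G63540 and AT5G67640) it had no base in either. AT2G48160 at the right end of chromosome 2 had 8.00% in H3K27me1 and 10.003% in 5mC domains. AT3G01015 and AT5G01010, the first genes at the left ends of chromosomes 3 and 5, had 21.9% and 7.21% in H3K27me1 alone. Of the 50 genes made up by the 5 nearest to each tip, 16 were touched by H3K27me1 (32%), 15 by 5mC (30%) and 30 by neither (60%), against 22.3%, 15.6% and 69% of all protein-coding genes. Without the left end of chromosome 2, the 5 nearest genes of each of the other 9 ends remained. Of these, 11 were touched by H3K27me1, 10 by 5mC and 30 by neither. The shares of the 50 genes thus include 5 touched genes from 1 end. At the other 9 ends, the shares touched by H3K27me1 and by neither were close to those of all protein-coding genes. The share touched by 5mC stayed above that of all protein-coding genes. At the left end of chromosome 2 all 5 were touched by both marks, and at the right ends of chromosomes 1 and 5 none of the 5 was touched by either.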

How the data were processed

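Per the submitters' processing notes, reads were handled with Bowtie, which aligns reads, and SICER, which calls domains, on TAIR10. The sources used here do not give versions, calling thresholds, how multiply matching reads or inputs were used, or whether replicates were pooled. The authors deposited 1 list per mark, whose whole-number read counts per domain are not normalized and were used only to describe or rank domains within a list. No domain held fewer than 114 reads (H3K27me1) or 97 reads (5mC). Widths are multiples of 300 bp (H3K27me1) and 150 bp (5mC), so numbers and widths of domains are not comparable between marks. In the lists the first base is numbered 0 and a domain's end is its last base; positions are printed counting from 1.

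Coverage is the share of bases in domains, computed with Python 3.11.15, numpy 2.4.6 and pandas 2.3.3 and tested on simulated domains. Genes came from the RefSeq table of assembly TAIR10.1 (27444 protein-coding genes and 4843 pseudogenes on the nuclear chromosomes), of which no coordinate is printed. Its fit to the lists was checked by shifting pseudogenes by up to 5000 bp in steps of 50 bp; the overlap was largest at 0 bp over the genome and within 50 bp of it in the ends. A gene belonged to an end by its midpoint and was called covered if at least 50% of its length lay in domains. Pericentromeres (26.9 Mb) were the runs of 100 kb windows, averaged over 11, with protein-coding coverage under 0.7 of the chromosome's median.

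No test was run, since no value per replicate exists. Named genes were a list of 27 known genes of the ends, the 10 with most bases in H3K27me1 alone, 5mC alone or both, those covered by both marks, the rRNA genes and longer pseudogenes, the genes nearest to the tips, and genes under the widest or densest domains; FKD1, AT-HSFA7B, SEOR1 and the pseudogenes with little or no 5mC were named after their values were seen. The members and lists were chosen with earlier results of these data known. No sequence is printed, because no genome was used.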

Additional observations from a re-analysis of the deposited data

How the results depend on the processing

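No paired analysis was possible because the lists carry no column for single replicates; leaving out a replicate was not run for the same reason. Over 11 results and 13 alternative settings, 28 of 80 values stayed close to the reported one, 49 moved and 3 changed direction. Unless stated, the cause was not tested. No domain crossed the limit of 500 kb, so taking whole domains by midpoint or by any overlap could not change a value. The values of these settings are among the 28 and do not show stability. Leaving out the left end of chromosome 2, looking only outside pseudogenes and rRNA genes, and comparing with the adjacent 500 kb were chosen after seeing the data.

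With the outermost 250 kb, coverage was 9.184% for H3K27me1 and 5.172% for 5mC. The ends then exceeded the rest of the arms by 2.66 percentage points for H3K27me1 and by 0.789 for 5mC, the reverse of the reported 5mC difference of -0.448. The H3K27me1 bases lay to 40.2% in 5mC, the 5mC bases to 71.5% in H3K27me1, and 64 genes were covered by H3K27me1. With 1000 kb, coverage was 6.978% and 3.7425%, the differences were 0.428 and -0.742, 54.3% of 5mC bases lay in H3K27me1, and the genes covered numbered 187 for H3K27me1 and 36 for 5mC.

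With domains of at least 1000 bp, coverage was 4.2% and 2.226%, the 5mC difference was -0.147, the shares in the other mark were 46.4% and 87.5%, and 50 and 8 genes were covered. With the denser 50% of each list, coverage was 3.9% and 2.892%, the 5mC difference was -0.140, the shares were 53.8% and 72.5%, and 90.4% of bases with H3K27me1 alone were protein-coding.

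Without the left ends of chromosomes 2 and 4, coverage was 6.4575% and 2.24625%. The H3K27me1 difference of 1.22 reversed to -0.0724 and the 5mC difference was -2.18, the shares were 13.8% and 39.6%, and 5 genes were covered by 5mC. Without the left end of chromosome 2 alone, coverage was 6.587% and 2.473%, the differences were 0.0568 and -1.96, and the shares were 15.3% and 40.8%. Without the outermost 50 kb, coverage was 6.963% and 2.841%, the differences were 0.433 and -1.59, and the shares were 20.4% and 49.9%. Outside pseudogenes and rRNA genes, coverage was 6.407% and 2.684%, while the differences from the rest of the arms stayed close to those reported, at 1.18 and -0.433. Against the adjacent 500 kb of each arm, the H3K27me1 difference was 1.55 and the 5mC difference reversed to 0.477. Counting genes with any overlap gave 349 for H3K27me1 and 150 for 5mC, and with at least 80% of the gene 24 for H3K27me1.

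The higher H3K27me1 coverage of the ends than of the whole rest of the arms thus rests mostly on the left end of chromosome 2. Against the adjacent 500 kb, the mean of the other 9 ends was still higher, with 6.59% against 5.96%, but 3 of the 9 were lower. The sign of the 5mC difference over all ends depends on the size of the ends and on the sequence compared, with the left end of chromosome 2 included. Without it, the mean of the other 9 ends was 2.47% against 2.76% in the adjacent 500 kb, with 6 ends lower and 3 higher. The 250 kb ends were not recomputed without it. The 5mC bin means of the other 9 ends were 5.04% in the outermost 50 kb. From 50 to 250 kb they lay between 1.23 and 3.19%, against 4.43% in the rest of the arms. Domains under the calling minimum are not in the lists, so a base outside a domain is not shown to lack a mark. Read counts over repeats depend on how multiply matching reads were placed, which is unknown here.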
